A study of Mus musculus with 14 samples.

Results

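Vwf encodes von Willebrand factor, and its expression was followed here in mouse blood stem cells and in their labelled progeny. Vwf (VWF in the tables) is 1 of 22842 genes found in both deposited count tables. It lies on chromosome 6 of GRCm38, from 125546774 to 125686679 on the plus strand, and GENCODE lists it as a protein-coding gene with 11 transcripts, the longest with 52 exons, and with no overlapping gene. A cell was called Vwf-positive when it held more than 10 Vwf counts, and 95 of the 1010 cells kept met this rule. Among 193 cells that held more than 10 counts of at least 3 of the 5 stem cell genes Hlf, Mecom, Mllt3, Sult1a1 and Procr (stem-gated cells), 19 were Vwf-positive.

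Von Willebrand factor is a large secreted adhesion protein made by endothelial cells and megakaryocytes, the bone marrow cells that shed platelets. It is stored in platelet alpha granules, carries coagulation factor VIII in plasma, and tethers platelets to injured vessel walls through the Gp1ba, Gp1bb, Gp9 and Gp5 receptor complex and the integrin of Itga2b and Itgb3. Part of the mouse stem cell compartment is known to transcribe Vwf too, and Vwf-positive stem cells have been described as biased towards platelet production.

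The series traced adult blood stem cells and their offspring with an inducible heritable reporter, given in the labels as Tom. Single lineage-negative, Tom-positive cells were sorted into plates and sequenced from the 3′ end of transcripts by a modified Smart-seq2 protocol. Mouse m4539 was taken at day 3 (190 cells kept), mouse m4533 at day 10 (107 cells), and mice m4528, m605 and m606 at day 17 (288, 143 and 189 cells), while a further day 17 plate held mice m605 and m606 together (93 cells). That plate was left out of the reported tests between mice, entered 1 alternative as a sixth sample, and is part of every count of cells pooled over plates, with 2 of the 19 Vwf-positive stem-gated cells. All groups carried the reporter, the labels name no untreated control, and they do not give strain, age or the driver of the reporter, nor the event from which days were counted. Days 3 and 10 are 1 mouse each, so a difference between days cannot be told apart from a difference between mice, and the second table holds day 17 only. The median cell held 118001 to 286917 counts per mouse. Of all Vwf counts, 98.6% lay in kept cells. All 96 well barcodes were used on more than 1 plate, and no 2 kept barcodes of a plate differed by a single base.

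Among the marker-gated classes, Vwf was highest in cells with megakaryocyte genes. Classes were set by the same rule, more than 10 counts of at least 3 of 5 marker genes, and a cell that passed the stem gate was counted there. Any other cell went to the gate with the most of its genes, or to no gate on a tie. Of the 102 megakaryocyte-gated cells (Pf4, Itga2b, Gp1bb, Gp9, F2rl2), 46 were Vwf-positive, or 45.1% (exact 95% interval 35.2 to 55.3). They were 10.1% of the cells, 48.4% of the Vwf-positive cells and held 56.6% of the Vwf counts. Stem-gated cells were 19.1% of the cells and 20% of the Vwf-positive cells and held 15.3% of the Vwf counts. The Vwf-positive share was 9.84% in stem-gated cells (19 of 193, interval 6.03 to 14.9), 8.33% in erythroid-gated cells (9 of 108), 4.65% in neutrophil-gated cells (2 of 43) and 4.56% in cells that passed no gate (19 of 417).

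No Vwf-positive cell was found among 88 monocyte-gated cells (interval up to 4.11%), 33 multipotent progenitor-gated cells (up to 10.6%) and 26 basophil or mast cell-gated cells (up to 13.2%). Low counts of Vwf were spread more widely. Of the stem-gated cells, 62 of 193 held 1 to 10 Vwf counts at a median depth of 121135 counts, against 30 of 88 monocyte-gated cells, which should lack the gene, at a median depth of 257166. The number of such stem-gated cells varied, with 24 of 87 at day 3, 25 of 38 at day 10 and 13 of 68 at day 17. At day 17, 27 of 85 monocyte-gated cells held 1 to 10 counts. Values of 1 to 10 counts were read as background, on the assumption that monocyte-gated cells lack the gene. On the scale of counts per 1000000 counts (CPM) over pooled cells, Vwf was at 184 in megakaryocyte-gated, 41.3 in stem-gated, 18.5 in erythroid-gated, 8.96 in neutrophil-gated and 1.95 in monocyte-gated cells.

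**Figure D1:**
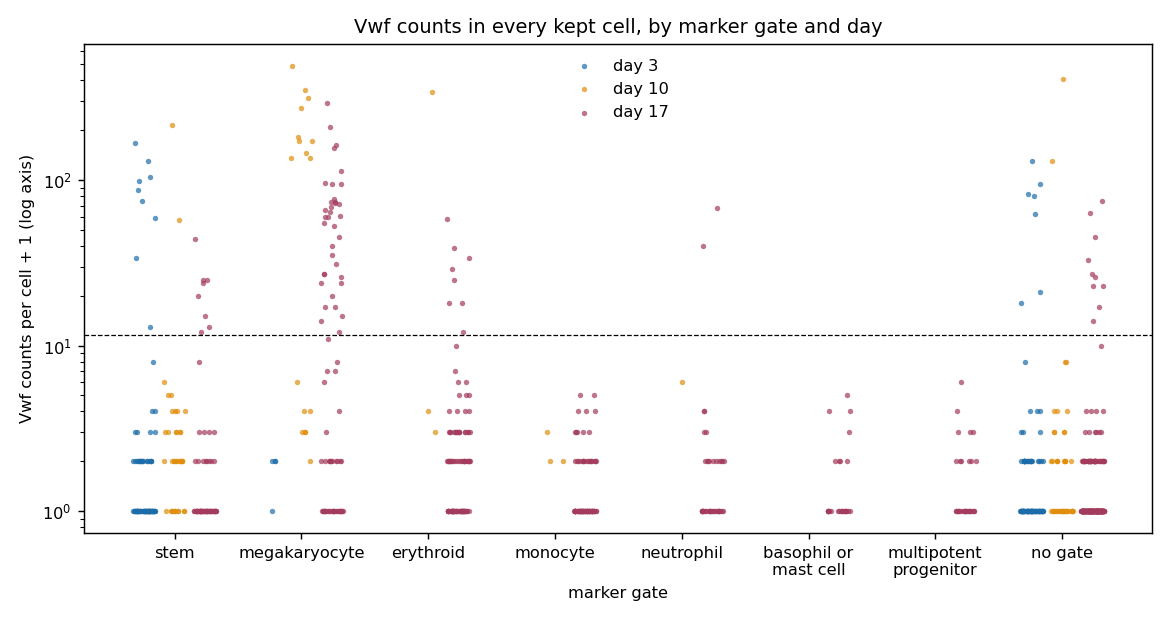
Vwf counts plus 1 (log axis) of each of the 1010 kept cells, in columns by marker gate and, within a column, from day 3 to day 17; the dashed line marks the threshold of more than 10 counts. Above the line lie 19 of 193 stem-gated and 46 of 102 megakaryocyte-gated cells, and no monocyte-gated cell.

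Among stem-gated cells, the Vwf counts of positive and negative cells lay apart. The 19 positive cells held 11 to 215 counts, the lowest of them 11, 12 and 12. The highest values below the threshold were 7, 7 and 5. Vwf-positive cells did not follow the number of stem genes in one direction. The Vwf-positive share was 8.51% in cells with none of the 5 stem genes over 10 counts, 10.8% with 1, 8.82% with 2, 7.87% with 3 (10 of 127), 15.8% with 4 (9 of 57) and 0 of 9 with all 5. Of the gate's own genes, Hlf was over 10 counts in 11 of 19 Vwf-positive and 133 of 174 Vwf-negative cells. Procr, the endothelial protein C receptor and a surface marker of stem cells, was over 10 counts in 10 of 19 Vwf-positive and 56 of 174 Vwf-negative cells.

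By day, Vwf-positive stem-gated cells numbered 9 of 87 at day 3 (10.3%, exact 95% interval 4.84 to 18.7) and 2 of 38 at day 10 (5.26%, interval 0.644 to 17.7). At day 17 they numbered 2 of 36 in mouse m4528 (5.56%), 2 of 2 in mouse m605 and 2 of 18 in mouse m606 (11.1%). The intervals of these shares overlap, widely so except for that of mouse m605 (15.8 to 100%), whose share rests on 2 cells. The day 17 mice averaged 38.9% ± 53.0 (SD, n = 3) and the 2 earlier mice 7.80%, a difference of 31.1 percentage points with an exact two-sided permutation p of 0.6, where 0.1 is the smallest the design allows. Without mouse m605 the day 17 mice averaged 8.33% and the earlier mice 7.80%.

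The Vwf level in stem-gated cells was 55.2 CPM at day 3, 28.4 CPM at day 10, while the day 17 mice stood at 20.8 CPM (m4528), 413 CPM (m605) and 24.8 CPM (m606). Mouse m605 stood apart, again on 2 cells. In edgeR's quasi-likelihood test with the table as a term, Vwf changed by -1.28 log2 units per 14 days (SE 2.13, adjusted p = 1), and 0 of 11267 genes passed (background 0%), with 168 at an unadjusted p under 0.05 (1.49%) and 0 passing by DESeq2. Without the table term the estimate was 1.28, so these data give no direction of Vwf with day in stem-gated cells. The highest counts per cell differed between days: 6 of 9 positive cells at day 3 held at least 74 counts, while the 8 positive cells of day 17 held 11 to 43. The positive cells of day 3 held 131132 to 920865 total counts, and those of day 17 held 36479 to 134082. Divided by total counts, Vwf stood at 91.5 to 694 CPM in the positive cells of day 3 and at 168 to 535 CPM in those of day 17, and these ranges overlap. The part of depth in the difference in counts was not tested.

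**Figure D2:**
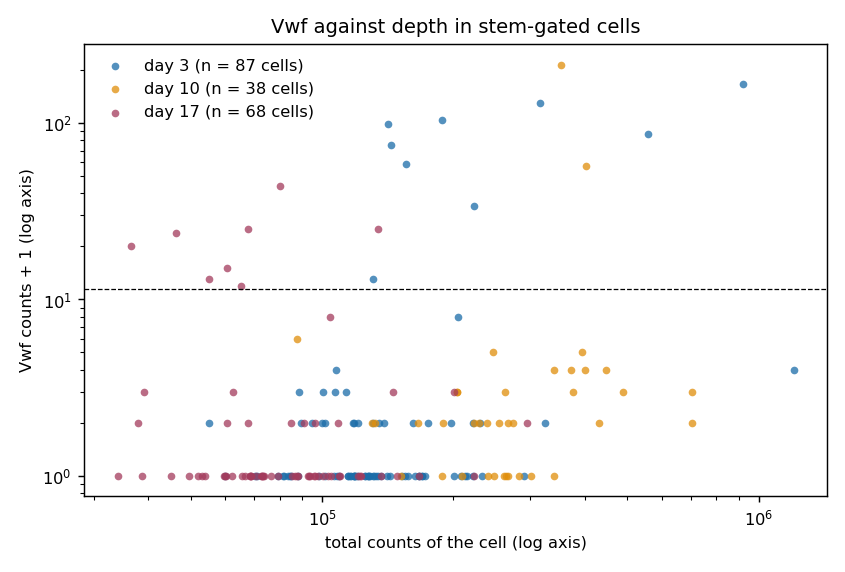
Vwf counts plus 1 against the total counts of each stem-gated cell, both on log axes, coloured by day, with a dashed line at the threshold of more than 10 counts. The 8 Vwf-positive cells of day 17 lie at the left, with 36479 to 134082 total counts, and the gap between 7 and 11 Vwf counts holds no cell.

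Vwf was then compared between stem-gated and megakaryocyte-gated cells of the same mouse. In mouse m4533, 2 of 38 stem-gated and 10 of 17 megakaryocyte-gated cells were Vwf-positive. In mouse m4528 these numbers were 2 of 36 and 3 of 25, and in mouse m606 they were 2 of 18 and 19 of 31. The share was lower in stem-gated cells in 3 of 3 mice, although in mouse m4528 the intervals overlap (0.680 to 18.7% for stem-gated and 2.55 to 31.2% for megakaryocyte-gated cells). The mean share was 7.31% in stem-gated and 44.0% in megakaryocyte-gated cells, a difference of -36.7 percentage points (SD 26.3, n = 3 mice, exact sign-flip p = 0.25, the smallest that 3 mice allow). Median depths of the 2 classes differed (262954 and 610420 counts in mouse m4533). With each cell thinned to 20000 counts and positive taken as at least 2 Vwf counts, the difference was -26.4 points and 2 of 3 mice were lower.

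Mice with under 5 cells of a class were left out, and they did not share this order. At day 3, 9 of 87 stem-gated cells and 0 of 4 megakaryocyte-gated cells were Vwf-positive, and the 4 megakaryocyte-gated cells allow a share of up to 60.2%. In mouse m605, 2 of 2 stem-gated and 5 of 10 megakaryocyte-gated cells were positive. With all 5 mice the mean difference was -9.97 points (exact sign-flip p = 0.688). On the plate of mice m605 and m606 together, 2 of 12 stem-gated and 9 of 15 megakaryocyte-gated cells were Vwf-positive.

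**Figure D3:**
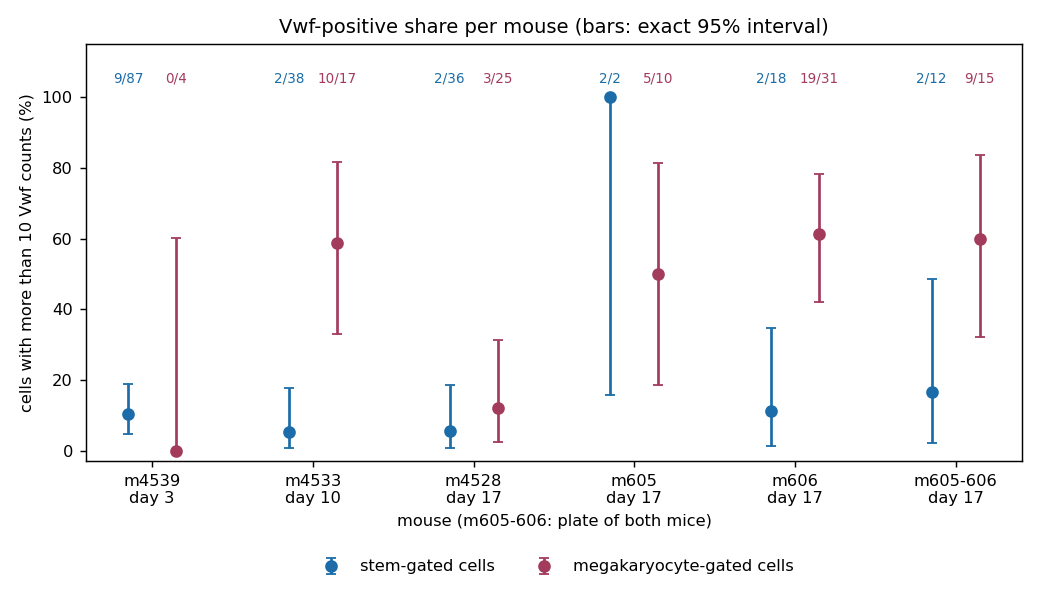
Share of Vwf-positive cells (percent) among stem-gated and megakaryocyte-gated cells of each mouse and of the plate of both mice m605 and m606, with exact 95% intervals and the number of positive over all cells above each point. Stem-gated points lie below megakaryocyte-gated points in mice m4533, m4528 and m606 and on the shared plate, and above them in mice m4539 (0 of 4 megakaryocyte-gated cells) and m605 (2 of 2 stem-gated cells).

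The Vwf level followed the share. It was 28.4 CPM in stem-gated and 217 CPM in megakaryocyte-gated cells of mouse m4533, 20.8 and 78.8 CPM in mouse m4528, and 24.8 and 239 CPM in mouse m606. The groups did not overlap in these 3 mice, but how many of all genes separate in this way was not counted. The log2 difference was -2.72 (SE 0.48), with an adjusted p of 0.22 in edgeR's quasi-likelihood test, so Vwf did not pass. By edgeR 0 of 12134 genes passed (background 0%), and 1618 genes (13.3%), Vwf among them, were under 0.05 before adjustment. DESeq2 called Vwf lower in stem-gated cells (-2.66, adjusted p = 4.04e-05) among 1431 genes (11.8%), of which 646 were lower (5.32% of genes tested). With all 5 mice the edgeR difference was -1.13 (adjusted p = 0.846).

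The platelet and megakaryocyte list holds the gate's own genes and cannot test it, and is given for scale. Of its 22 tested members, 20 were lower and 2 higher in stem-gated than in megakaryocyte-gated cells, with a median log2 difference of -2.16 beside -0.11 for all genes and 0 members passing. The von Willebrand factor handling list holds genes linked to binding, storage or processing of the factor, and also Lman1 and Mcfd2. Of its 16 tested genes, 13 were lower and 3 higher (median -1.09), with 0 passing. This list also holds the gate genes Gp1bb, Gp9 and Itga2b, so it cannot test the gate either. The list's members outside the megakaryocyte gate ranged widely. Selp, P-selectin, which is stored in the same granules, was over 10 counts in 11 of 193 stem-gated and 32 of 102 megakaryocyte-gated cells. Cd63, a granule membrane protein, was found in 114 of 193 and 61 of 102. Lman1 and Mcfd2, the cargo receptor pair that carries coagulation factors V and VIII out of the endoplasmic reticulum, were found in 30 and 51 of 193 stem-gated and in 38 and 44 of 102 megakaryocyte-gated cells. F8, the factor VIII gene, was found in 0 of 193 and 1 of 102.

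Genes were ranked by how like their levels were to those of Vwf across classes. Likeness was the Pearson correlation of log2 CPM over 22 sums of cells by mouse and class, given as a description, since sums of a mouse share plates and depth. Among 8716 genes the highest values were those of Gp1bb (0.90, itself a gate gene), Gm10419 (0.90), F2r (0.90), Gm16140 (0.89), Med12l (0.89), Clec1b (0.89), Rab27b (0.88), Esam (0.88), Ehd3 (0.88) and Sdpr, now named Cavin2 (0.87). Of these 10, Gp1bb, Clec1b, Rab27b and Sdpr are on the platelet and megakaryocyte list. F2r encodes a thrombin receptor, Clec1b a platelet receptor for podoplanin, Rab27b a small GTPase of granule release, and Esam an adhesion molecule of platelets, endothelium and stem cells. Gm16140 lies antisense within Meis1, Gp1bb overlaps Sept5 on the same strand, and Clec1b overlaps Clec9a on the same strand, so reads of these pairs may be mixed where counting did not resolve them.

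Of these 10 genes, 7 had a start-site entry of 300 bases in RefSeq on GRCm38.p6. They were searched on both strands for AGATAA, the motif of GATA factors (in 11.4% of 27025 promoters), GGAAGT and CCGGAA (ETS factors, 24.1% and 15.2%) and TGTGGT (RUNX factors, 16.9%), since these factor families are known to act at megakaryocyte genes. AGATAA was found in 1 of the 7, GGAAGT in 2, CCGGAA in 1 and TGTGGT in 1. The start regions of F2r and Clec1b, the receptors among the 7 besides Gp1bb, are shown 5′ to 3′ on the strand of the gene, with motif matches in capitals. That of F2r (chr13:95618417-95618716, minus strand) holds TGTGGT and CCGGAA on the opposite strand, beginning 178 and 112 bases before the start site. That of Clec1b (chr6:129397047-129397346, plus strand) holds AGATAA 37 bases after it. A match is a description of these letters only.
F2r: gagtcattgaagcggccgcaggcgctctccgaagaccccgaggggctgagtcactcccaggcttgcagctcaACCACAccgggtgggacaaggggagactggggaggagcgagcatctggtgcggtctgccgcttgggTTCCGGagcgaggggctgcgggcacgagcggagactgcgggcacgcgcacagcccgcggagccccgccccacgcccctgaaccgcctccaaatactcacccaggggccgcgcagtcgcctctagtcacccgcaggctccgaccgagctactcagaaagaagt
Clec1b: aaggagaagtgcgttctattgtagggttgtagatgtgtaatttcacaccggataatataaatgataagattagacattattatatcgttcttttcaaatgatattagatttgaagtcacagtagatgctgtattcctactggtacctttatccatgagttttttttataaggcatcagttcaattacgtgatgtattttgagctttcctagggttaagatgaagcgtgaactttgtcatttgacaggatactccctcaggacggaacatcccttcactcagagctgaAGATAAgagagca

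Within stem-gated cells, no gene followed Vwf closely. Over 4493 candidate genes the mean Spearman correlation with Vwf across the cells of mice m4539, m4533 and m4528 was highest for Setd2, a histone methyltransferase (0.383, or 0.224, 0.321 and 0.605 in these mice), and Gtpbp2 (0.345). Usp4, Yif1b, Tex30, Mybbp1a, Gnai2, Tdp2, Rps27l and Ppp1r9a followed with 0.321 to 0.304. None of these 10 is among the 10 genes most like Vwf across classes. In counts this sparse a correlation of this size is no finding.

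The 19 Vwf-positive stem-gated cells were mixed in their other genes. The highest Vwf count, 215, was in a day 10 cell with 308 Hlf, 274 Mecom and 414 Cd9 counts but 6 of Pf4 and 5 of Gp1bb. One day 3 cell passed the megakaryocyte gate as well, with 86 Vwf, 3232 Pf4, 1093 Gp1bb and 136 Gp9 counts together with 490 of Mllt3. Another day 3 cell, with 167 Vwf counts, also passed the erythroid gate, with 2950 counts of Car1 and 817 of Klf1. The 8 positive cells of day 17 held at most 4 Pf4 counts and no more than 1 count of Gp1bb. Of 10 endothelial markers, no Vwf-positive stem-gated cell had more than 1 over 10 counts, and Cdh5, Plvap, Fabp4, Cldn5, Stab2, Kdr and Flt1 were over 10 counts in 0 of 19, while Ecscr was so in 4, Tie1 in 2 and Cd36 in 1.

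**Figure D4:**
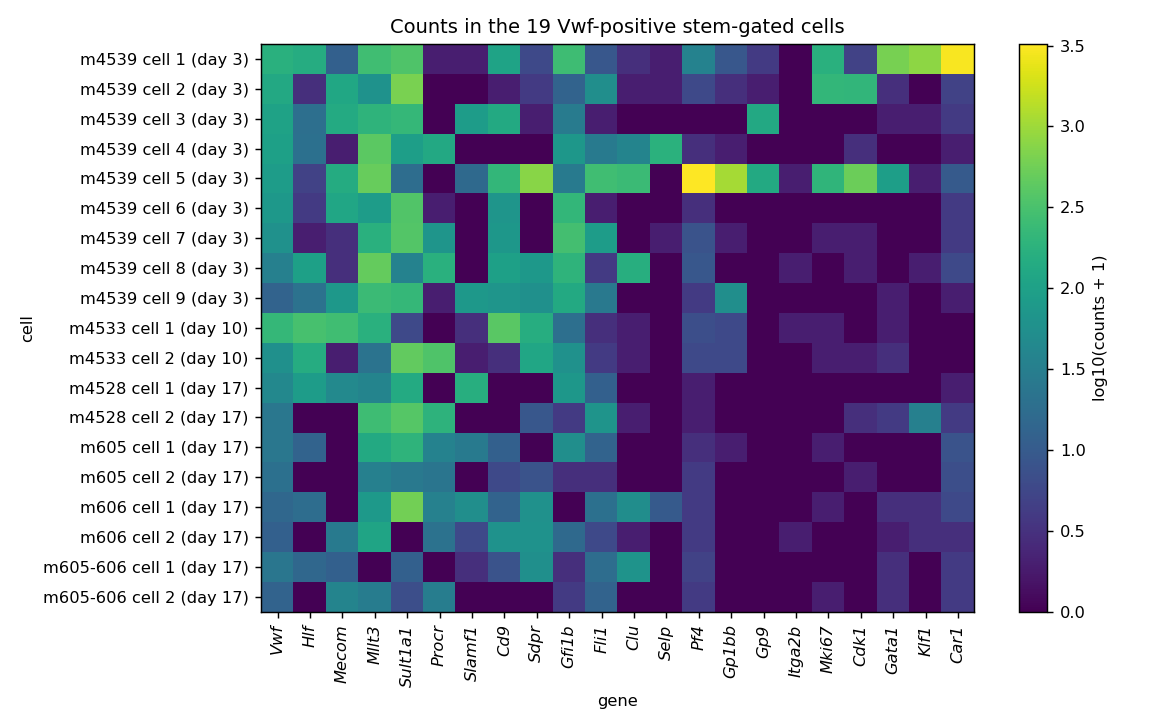
Counts, as log10(counts + 1), of 22 genes (columns) in each of the 19 Vwf-positive stem-gated cells (rows, by mouse and day, highest Vwf first within a mouse). Gfi1b is over 10 counts in 14 of the 19 cells, and Pf4 is high in 1 cell, with 3232 counts.

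Genes of the platelet surface and granules were over 10 counts in few Vwf-positive stem-gated cells. Pf4, platelet factor 4, was over 10 counts in 2 of 19 Vwf-positive and 32 of 174 Vwf-negative cells. Itga2b, the platelet integrin alpha chain, was so in 0 of 19 and 9 of 174, Gp9 in 2 of 19 and 13 of 174, and Gp1bb in 2 of 19 and 7 of 174. Treml1, F2rl2, Itgb3, Ppbp and Gp5 were over 10 counts in 0 of 19 Vwf-positive and in 1 to 5 of 174 Vwf-negative cells. For 0 of 19 cells the interval reaches 17.6%, so these shares cannot be told from those of the negative cells.

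The transcription factors of the platelet list and 2 of its membrane proteins, Cd9 and Sdpr, varied in how many Vwf-positive stem-gated cells held them. Gfi1b, a repressor needed for megakaryocyte and red cell formation, was over 10 counts in 14 of 19 Vwf-positive and 75 of 174 Vwf-negative cells (73.7% and 43.1%). Fli1, an ETS factor of megakaryocytes, was so in 11 of 19 and 54 of 174 (57.9% and 31.0%). Cd9, a tetraspanin of platelets and of stem cells, was so in 11 of 19 and 53 of 174, and Sdpr in 8 of 19 and 39 of 174. Tal1 stood at 11 of 19 and 82 of 174, and Nfe2, with the smaller share in Vwf-positive cells, at 14 of 19 and 138 of 174. Gata1 was over 10 counts in 2 of 19 and 5 of 174, and Zfpm1, its cofactor, in 2 of 19 and 11 of 174. Cd9 is the upstream neighbour of Vwf on chromosome 6, on the opposite strand, with 51982 bases and no annotated gene between them.

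Day 3, with 9 positive and 78 negative stem-gated cells of 1 mouse, allowed these shares to be set within a library pair. Gfi1b was over 10 counts in 9 of 9 positive cells (interval 66.4 to 100%) and 36 of 78 negative cells (34.8 to 57.8%). Cd9 was so in 7 of 9 and 20 of 78, and Tal1 in 8 of 9 and 41 of 78. In the other mice and the shared plate together, Gfi1b was so in 5 of 10 positive and 39 of 96 negative cells, Cd9 in 4 of 10 and 33 of 96, and Tal1 in 3 of 10 and 41 of 96. Outside day 3 the share of Tal1 was not larger in Vwf-positive cells. Fli1 was found in 5 of 9 and 25 of 78 cells at day 3, and in 6 of 10 and 29 of 96 of the rest. These cells are not replicates, and the shares were not tested.

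Several genes reported for platelet-biased or aged stem cells were over 10 counts in a larger share of Vwf-positive cells. Slamf1, the stem cell surface marker CD150, was over 10 counts in 6 of 19 Vwf-positive and 12 of 174 Vwf-negative cells, or 3 of 9 and 6 of 78 at day 3 and 3 of 10 and 6 of 96 in the rest. Clu, clusterin, was so in 5 of 19 and 5 of 174, or 3 of 9 and 2 of 78 at day 3 and 2 of 10 and 3 of 96 in the rest. Cd38 was so in 4 of 19 and 5 of 174. Aldh1a1, a retinaldehyde dehydrogenase, was so in 7 of 19 and 20 of 174, of which 4 of 9 and 6 of 78 at day 3. Nupr1 was so in 5 of 19 and 29 of 174, or 2 of 9 and 10 of 78 at day 3 and 3 of 10 and 19 of 96 in the rest. For Slamf1, Clu, Cd38, Aldh1a1 and Nupr1 the larger share was that of the Vwf-positive cells both at day 3 and in the rest. Selp stood at 1 of 19 and 10 of 174, Fhl1 at 3 of 19 and 32 of 174, and Jam2 at 0 of 19 and 22 of 174.

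Counted per cell, 3 (median) of the 22 platelet-biased or aged stem cell genes were over 10 counts in Vwf-positive cells and 1 in Vwf-negative cells. For the 25 platelet and megakaryocyte genes the medians were 5 and 4, and for 18 von Willebrand factor handling genes 1 and 1. Vwf-positive cells were deeper: their median total was 188733 counts against 125512 in Vwf-negative cells of mouse m4539, 377596 against 261946 in mouse m4533, 107194 against 96304.5 in mouse m4528 and 62884.5 against 59865.5 in mouse m606. The mean log2 ratio was 0.335, higher in 4 of 4 mice (exact sign-flip p = 0.125, the smallest that 4 mice allow). A fixed threshold of more than 10 Vwf counts can itself select deeper cells. With the shared plate added the mean was 0.189 and 1 of 5 samples was lower. The listed genes were also counted at 2 or more counts after thinning to 20000 counts, with the Vwf groups still set on unthinned counts. The mean number of platelet-biased or aged genes was then 3 in Vwf-positive and 1.66 in Vwf-negative cells, and that of platelet genes 5.05 and 4.01. Other lists also had the higher thinned mean in Vwf-positive cells, with 4.47 and 3.14 for quiescence genes and 10.1 and 8.79 for stem cell genes outside the gate. Proliferation genes did so too, with 3.79 and 2.61. The thinned mean was lower in Vwf-positive cells for von Willebrand factor handling genes (1.63 and 1.74) and lymphoid and multipotent progenitor genes (2.21 and 2.25). Within mice the thinned means went both ways. Platelet genes averaged 5.67 in Vwf-positive and 3.79 in Vwf-negative cells of mouse m4539 and 4 and 3.68 in mouse m4528, but 3 and 4.33 in mouse m4533 and 4.5 and 4.63 in mouse m606. Platelet-biased or aged genes were higher in Vwf-positive cells of mice m4539, m4528 and m606 and lower in mouse m4533 (1.5 and 1.78).

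Other stem cell and progenitor genes were also counted. Fgd5, a stem cell gene, was over 10 counts in 0 of 19 Vwf-positive and 21 of 174 Vwf-negative cells, and Ly6a, the surface antigen Sca-1, in 4 of 19 and 48 of 174. All 4 of those Ly6a cells were from mice other than m4539, where 0 of 9 and 15 of 78 cells held it. Flt3, Cd34 and Cd27, genes of multipotent and lymphoid progenitors, were over 10 counts in 0, 3 and 3 of 19 Vwf-positive and in 11, 33 and 33 of 174 Vwf-negative cells. Cell cycle genes marked 3 positive cells: Mki67 was over 10 counts in 3 of 19 and 7 of 174, and Ccna2 in 3 of 19 and 4 of 174. All 3 were day 3 cells, where 3 of 9 and 4 of 78 held Mki67, and they include the cells that passed the megakaryocyte and erythroid gates. Ccng1, a p53 target, was over 10 counts in 11 of 19 and 34 of 174. Egr1, an early response factor linked to stem cell quiescence, was so in 17 of 19 and 94 of 174. It stood at 8 of 9 and 43 of 78 at day 3 and 9 of 10 and 51 of 96 in the rest. Btg2, an antiproliferative gene, was so in 9 of 19 and 33 of 174, or 4 of 9 and 19 of 78 at day 3 and 5 of 10 and 14 of 96 in the rest. The second table gave a larger part of the positive than of the negative cells. Its positive cells were 2 of 2 in mouse m605, 2 of 18 in mouse m606 and 2 of 12 on the shared plate. The part of this in the pooled shares was not tested. Ccng1, Egr1 and Btg2 are on the quiescence list, of which Rgs1 (5 of 19 and 65 of 174) and Ccnd1 (1 of 19 and 16 of 174) went the other way.

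The test across all genes summed counts per mouse and arm in the 4 mice with at least 2 cells of each arm (m4539, m4533, m4528 and m606). Of 10792 genes, 2 passed edgeR's quasi-likelihood test (background 0.0185%) and 1737 were under 0.05 before adjustment (16.1%). Both that passed had negative estimates: Klf6 (-3.63, SE 0.70, adjusted p = 0.00193) and Fos (-1.86, SE 0.40, adjusted p = 0.0176). Klf6 is a zinc finger factor and Fos an immediate early gene. The median of all genes was -2.04, so that Fos lay 0.19 above it. Of the tested genes, 42.8% to 57.9% were at 0 in the Vwf-positive sums of 2 cells in mice m4533, m4528 and m606, against 2.08% to 9.92% in the Vwf-negative sums. Per cell, Klf6 was over 10 counts in 10 of 19 Vwf-positive and 90 of 174 Vwf-negative cells, and Fos in 12 of 19 and 83 of 174 over all plates. These pooled shares mix mice of unlike levels. In Vwf-negative cells Fos stood at 7222 CPM in mouse m606 and at 190 to 879 CPM in mice m4539, m4533 and m4528. In the mice of the test, Klf6 was over 10 counts in 4 of 9 Vwf-positive and 37 of 78 Vwf-negative cells of mouse m4539, 0 of 2 and 14 of 36 in mouse m4533, 0 of 2 and 14 of 34 in mouse m4528, and 2 of 2 and 15 of 16 in mouse m606. The Klf6 share was lower in Vwf-positive cells in 3 of these 4 mice. Fos was over 10 counts in 5 of 9 and 39 of 78 cells of mouse m4539 and in 0 of 2 and 6 of 36 of mouse m4533. It was so in 1 of 2 and 13 of 34 cells of mouse m4528 and in 2 of 2 and 15 of 16 of mouse m606. The Fos share was thus higher in Vwf-positive cells in 3 of these 4 mice, although its estimate was negative. Neither Klf6 nor Fos passed with RLE size factors, with DESeq2, or without mouse m606. In edgeR's test without that mouse the adjusted p was 0.292 for Klf6 and 0.411 for Fos. Klf6 also did not pass without mouse m4528 (adjusted p = 0.112).

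No gene passed as higher. The 5 with the lowest unadjusted p were Gm26202, Pls1, Plk2, Kank2 and Trib1 (adjusted p 0.0754 to 0.0922), and none of them passed. Pls1, plastin 1, an actin-bundling protein, was over 10 counts in 5 of 19 Vwf-positive and 0 of 174 Vwf-negative cells. Its positive cells were 2 of 9 in mouse m4539, 2 of 2 in mouse m4533 and 1 of 2 in mouse m606, with up to 256, 284 and 14 counts. It was the only gene besides Vwf over 10 counts in at least 5 positive and in no negative stem-gated cell. In megakaryocyte-gated cells Pls1 was over 10 counts in 11 of 46 Vwf-positive and 11 of 56 Vwf-negative cells. The log2 difference in stem-gated cells was 7.73 (SE 2.46), with an adjusted p of 0.0754 by edgeR and 0.000947 by DESeq2. Kank2 was over 10 counts in 3 of 19 and 0 of 174, Plk2 in 7 of 19 and 36 of 174, Gm26202 in 1 of 19 and 0 of 174, and Trib1 in 1 of 19 and 3 of 174.

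Of those with negative estimates that did not pass, Sh2d5, Chrnb1, Osbp, Zfp677 and Dag1 had the lowest unadjusted p (adjusted p 0.0754). Each was at 0 in all positive cells summed for the test and over 10 counts in 6 to 11 of 174 Vwf-negative cells. By list, 21 platelet and megakaryocyte genes were tested, 2 with positive and 19 with negative estimates, and their median was -1.32 beside -2.04 for all genes. The 19 platelet-biased or aged genes had a median of -1.18, the 24 stem cell genes outside the gate -0.73, the 17 proliferation genes -1.39 and the 10 quiescence genes -0.03. Below the median of all genes lay the 16 von Willebrand factor handling genes, all with negative estimates (-3.81). Of these, 5 were under 0.05 before adjustment, as were 16.1% of all genes in edgeR's test. Summed over the list, Vwf-positive and Vwf-negative cells stood at 1000 and 1002 CPM over all plates. By mouse the sum was higher in Vwf-positive cells of m4539 (1323 and 849 CPM). It was lower in m4533 (56.9 and 1174 CPM), m4528 (774 and 1118 CPM) and m606 (366 and 689 CPM). The part of zeros in the sums of 2 cells was not tested. Also below the median of all genes lay the 9 interferon response (-3.42), 13 lymphoid and multipotent progenitor (-2.63) and 4 endothelial genes (-2.51). No member of any of these lists passed.

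Vwf split the megakaryocyte-gated cells as well, in 46 positive and 56 negative cells. Treml1, a platelet activation receptor, was over 10 counts in 31 of 46 Vwf-positive and 21 of 56 Vwf-negative cells. Cd9 stood at 45 of 46 and 48 of 56, and Gp1ba, the chain that binds von Willebrand factor, at 8 of 46 and 1 of 56. Rab27b was over 10 counts in 42 of 46 and 41 of 56, but its level was lower in Vwf-positive cells of mice m4533 (521 and 721 CPM), m4528 (412 and 444 CPM) and m605 (394 and 429 CPM) and higher in mouse m606 (522 and 281 CPM). Gata1, the erythroid and megakaryocyte GATA factor, stood at 24 of 46 and 41 of 56. The median number of platelet genes over 10 counts per cell was 15 in Vwf-positive and 13 in Vwf-negative cells, and that of platelet-biased or aged stem cell genes 6 and 3.5. Vwf-positive cells were deeper in each of the 4 mice with both kinds, from 148707 against 99546 counts in mouse m606 to 716140 against 583353 in mouse m4533 (medians). The listed genes were also counted after thinning, with the Vwf groups still set on unthinned counts. The medians were then 14 and 13 for platelet genes and 5 and 3 for platelet-biased or aged genes. In mouse m605 the thinned means were 12.8 and 13.2 for platelet genes and 4 and 4 for platelet-biased or aged genes.

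By mouse, Treml1 was at 368 CPM in Vwf-positive and 137 CPM in Vwf-negative megakaryocyte-gated cells of mouse m4533, 285 and 10.4 CPM in mouse m605, and 347 and 186 CPM in mouse m606. It was higher in 3 of 3 mice, and also in mouse m4528, which had 3 positive cells and did not enter the test (436 and 153 CPM). The log2 difference was 2.13 (SE 0.997), with an adjusted p of 0.9999 by edgeR's quasi-likelihood test. Pf4 was at 1809 and 1656 CPM in mouse m4533, 7497 and 4619 CPM in mouse m605, and 7213 and 4090 CPM in mouse m606, with a log2 difference of 0.62 (SE 0.28, edgeR adjusted p = 0.9999). Gata1 was at 279 and 701 CPM in mouse m4533, 257 and 260 CPM in mouse m605, and 215 and 408 CPM in mouse m606. Of 9894 genes, 0 passed (background 0%) with 339 at an unadjusted p under 0.05 (3.43%), and DESeq2 called 106, of which 82 were higher. Of 22 platelet and megakaryocyte genes tested, 15 had positive and 7 negative estimates, with a median of 0.43 beside 0.09 for all genes.

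**Figure D5:**
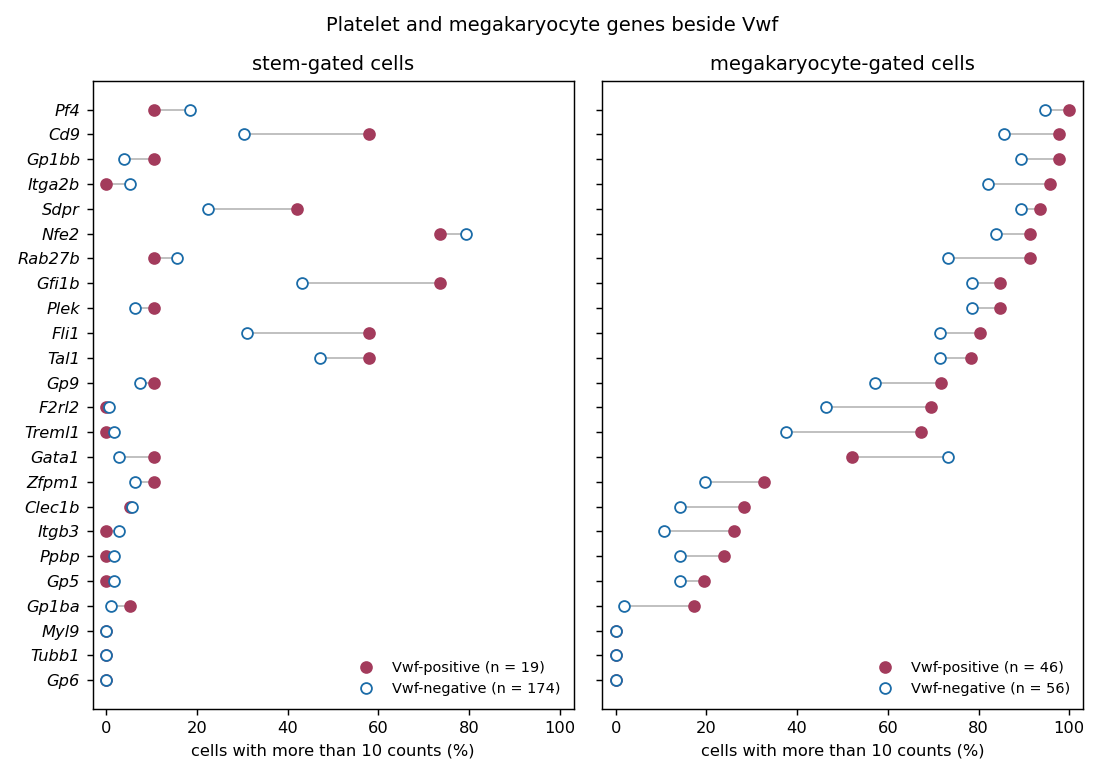
Share of cells (percent) with more than 10 counts of each of 24 platelet and megakaryocyte genes, ordered by the share in Vwf-positive megakaryocyte-gated cells, in Vwf-positive (filled) and Vwf-negative (open) cells of the stem gate (left) and of the megakaryocyte gate (right). In stem-gated cells Gfi1b stands at 73.7% and 43.1% and Pf4 at 10.5% and 18.4%, while in megakaryocyte-gated cells Treml1 stands at 67.4% and 37.5% and Gata1 at 52.2% and 73.2%.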

How the data were processed

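Single lineage-negative, Tom-positive cells of 5 mice were sequenced on 14 plates. The authors deposited raw counts in 2 tables, genes by barcodes, with no normalization. The submitters' processing notes name the build GRCm38. The sources used here do not name an aligner or counter, nor say whether molecular identifiers were used. Counts were therefore taken as reads, and intervals cover counting error only. Of 9357 barcodes, 1010 with at least 500 genes and 10000 counts were kept, with 15121279 to 64257177 counts per mouse or shared plate. Genes were matched by symbol.

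The members, gates and lists were chosen with earlier results of these data known. Gated cells were summed per mouse, the replicate, and tested with edgeR 4.0.16 (quasi-likelihood, TMM, filterByExpr, adjusted p threshold 0.05) in R 4.3.3, with mouse as a term between cells of 1 mouse and the table as a term over days. DESeq2 1.42.0 was an alternative. Shares were tested by exact permutation or sign flips over mice (Python 3.11.15, scipy 1.17.1). The scripts were tested on simulated data in which 200 genes changed 4-fold. The edgeR fit recovered 0 of them in the Vwf split of stem-gated cells and 0 for the change with day. It recovered 9 in the Vwf split of megakaryocyte-gated cells and 23 for stem-gated over megakaryocyte-gated cells, with 0 false calls. Few or no genes passing therefore cannot tell an absence of change from a lack of power. The planned minimum of 5 cells per arm left 1 mouse for the Vwf split of stem-gated cells, so a minimum of 2 cells was chosen after the data had been seen. The split of megakaryocyte-gated cells was also added then. Pairing comes from cells of the same animal. Doublets were not called in these sorted single cells. One listed platelet gene is counted in its lists but not reported here.

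The text names listed genes, the 10 largest changes in each direction among those past the threshold with 1 direction in every mouse (where under 5 pass, the 5 lowest unadjusted p), and the 10 genes most like Vwf across stem-gated cells. Likeness across classes and single cells' values were added after the data had been seen. Exact p-values over mice measure the spread between these mice. Those of edgeR's quasi-likelihood test rest on a spread estimated with information shared across genes. In the Vwf split of stem-gated cells, where a positive sum can hold 2 cells, spread between cells and spread between mice cannot be told apart.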

Additional observations from a re-analysis of the deposited data

Results flagged for a closer look

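The plate that held mice m605 and m606 together, which was left out of the reported tests between mice, was 17.2% Vwf-positive (16 of 93 cells), against 6.29% in mouse m605 and 14.8% in mouse m606 on their own plates. The barcodes that were left out as too shallow held 124 Vwf counts in all, at most 6 in a barcode, and 98 of these counts were from the day 10 mouse.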

How the results depend on the processing

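The difference in Vwf-positive stem-gated share between day 17 and earlier mice changed sign with more than 0 counts (-3.57 points), more than 50 counts (-6.65), a gate of 2 of 5 stem genes (-0.92) and the first table alone (-2.25), and ranged from 0.529 to 47.8 points with 1 mouse left out. The cause was not tested. The lower Vwf-positive share of stem-gated than of megakaryocyte-gated cells kept its direction under 18 alternatives (-51.9 to -9.97 points, exact p 0.125 to 1). Some of these could not differ from the reported result. Mice m4539 and m605 were not in that test, so leaving either out changed nothing, and the minimum of 500 genes alone gave the same value. The higher count total of Vwf-positive stem-gated cells kept its mean direction under 16 alternatives. Of these, leaving out mouse m605, which was not in that test, and the minimum of 500 genes alone changed nothing. The count total was lower in 1 of 5 samples with the shared plate and in 2 of 5 mice with a gate of 2 of 5 stem genes. The Vwf level of stem-gated over megakaryocyte-gated cells passed with DESeq2 (-2.66, adjusted p = 4.04e-05) and kept its direction under 18 alternatives (-3.11 to -1.13). Here too, leaving out mouse m4539 or m605 and the minimum of 500 genes alone changed nothing. Without the replicate block the level difference was -2.86 with an edgeR adjusted p of 0.086. The change with day changed sign without the table term (1.28).

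The number of genes called between Vwf-positive and Vwf-negative stem-gated cells was 0 with more than 0 counts, with more than 50 counts, with a gate of 2 of 5 stem genes, with the shared plate, in the first table alone, with RLE size factors and without the replicate block, 1 without cells of any other gate and 107 with DESeq2, and 0 to 6 with 1 mouse left out. In megakaryocyte-gated cells it was 106 with DESeq2 and 0 otherwise. Plk2 (-0.21) and Sh2d5 (2.05) changed sign with a gate of 2 of 5 stem genes, and Osbp (3.49) and Dag1 (0.94) with more than 0 counts. In stem-gated cells a minimum of 5 or 10 cells per arm, the second table alone and a gate of 4 of 5 stem genes could not give the split of all genes, the second table alone could not give the comparisons of days, and thinning, which equalises totals, gave no count total. In the 9 positive cells of day 3, a share of 0 allows up to 33.6%, so genes found in few cells cannot be compared at this number of cells.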
